A study of Gallus gallus with 9 samples.

Results

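The TSC22 domain genes and the FOXO genes of the chicken fibroblast line DF-1 were followed across 3 culture states. The members were set by a list of symbols and looked up in the deposited expression table: TSC22D1, TSC22D2, TSC22D3, TSC22D4, FOXO1 and FOXO3. Of these 6 symbols, 5 were found among the 15294 genes of the table, and TSC22D4 was not. All 5 passed the filter on low values, FOXO3 through its 3D libraries alone. The group was chosen by the FPKM values of TSC22D1, whose excess in 3D_E over 2D was the 8th largest of the 10436 genes tested. The comparison of 3D_E with 2D is therefore given for all members as values without a test. PAPSS2 ranked just above TSC22D1 there with a log2 difference of 5.16, and OvoDA1-2 just below with 4.84.

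TSC22 domain proteins share a short conserved box followed by a leucine zipper, through which they pair with themselves and with each other. In mammals they are known as transcription regulators that answer to TGF-beta, glucocorticoids and changes in cell volume, and as binding partners of the pseudokinase NRBP1. FOXO proteins are forkhead transcription factors: growth factor signals through PI3-kinase and AKT lead to their phosphorylation and export from the nucleus, and when the signal is low they drive genes of cell cycle arrest, autophagy and stress resistance. Much FOXO control acts on the protein, which an RNA measurement does not show. In mammalian lymphocytes and muscle, TSC22D3, also called GILZ, is a known target of both the glucocorticoid receptor and FOXO3.

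DF-1 is an immortalised chicken embryo fibroblast line, labelled wild type in all 9 libraries. There were 3 libraries in each of the groups 2D, 3D_E and 3D_L, from a study that moved attached cells to suspension without carriers. What the letters E and L stand for is not given there, nor is a time, a medium or a culture of origin. No label ties a library to a culture of its own, so p-values describe the scatter of these libraries, part of which may be technical. All 3 groups are one immortalised cell line, so no primary cell was measured.

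Levels are the authors' FPKM, fragments scaled by transcript length and by the fragments mapped in the library, so they can be compared between genes. Without counts the read depth stays unknown, and values carry no interval for counting error. The summed FPKM of a library was between 641334 and 738281. The root mean square SD across genes on the log2(FPKM + 1) scale was 0.12 in 2D, 0.29 in 3D_E and 0.16 in 3D_L, so 3D_E varied most. Of 15 fibroblast markers, 14 reached 1 FPKM in every library, and PDGFRA did not. The summed FPKM of 7 epithelial markers stayed between 0.94 and 4.30 and that of 5 myogenic markers between 0.01 and 0.31. Blood and immune markers, 8 of 10 in the table, summed to 10.9 to 12.8 in 2D, 32.5 to 33.4 in 3D_E and 105 to 114 in 3D_L, with most of the 3D sums in LAPTM5 and the leukocyte marker PTPRC at or under 0.69 in every library. CD3E, of the same list, had means of 7.45, 6.68 and 6.49 FPKM in 2D, 3D_E and 3D_L, and CSF1R reached 2.75 in its highest library. Endothelial markers, all 7 in the table, summed to 124 to 136, 42.5 to 74.4 and 116 to 144 in the same order, mostly through ERG, while KDR, the defining receptor, stayed at or under 0.10. CDH5, also on that list, had means of 6.79, 1.51 and 9.83. The part of these differences in the results was not tested. A bulk sample cannot tell fewer cells that express a gene from less RNA per cell.

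TSC22D1 (NCBI gene 396005), first known as a transcript that TGF-beta induces, had a middling level in 2D and was among the most abundant messages in 3D_E. Its FPKM was 18.34, 14.01 and 15.17 in the 2D libraries. In 3D_E it was 644.63, 561.93 and 466.59. In 3D_L it was 224.08, 233.20 and 264.09. The 3 groups did not overlap, with 2D lowest, 3D_L between and 3D_E highest. Ranked by FPKM among the 15294 genes of a library, TSC22D1 held places 4609 to 5346 in 2D, 167 to 210 in 3D_E and 399 to 438 in 3D_L. The mean level in 3D_E, 558 ± 89.1, was 35.2 times that in 2D, 15.8 ± 2.24, a log2 difference of 5.05 given without a test. In 3D_L the mean was 240 ± 21.0, and the rise over 2D was 3.85 ± 0.14 (SE) on the log2 scale (limma, adjusted p = 5.06e-08), the 16th largest rise of that comparison. This test shares the 2D libraries with the comparison that chose the gene, so it is not independent of that choice. The level in 3D_L was 0.431 times that in 3D_E, a log2 difference of -1.20 that is also given without a test. RefSeq lists 14 transcripts for TSC22D1, and mammals make long and short forms from separate promoters. The table holds 1 value per gene, so no form can be told from another, and a shift between long and short forms would also move an FPKM that divides by length.

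**Figure D1:**
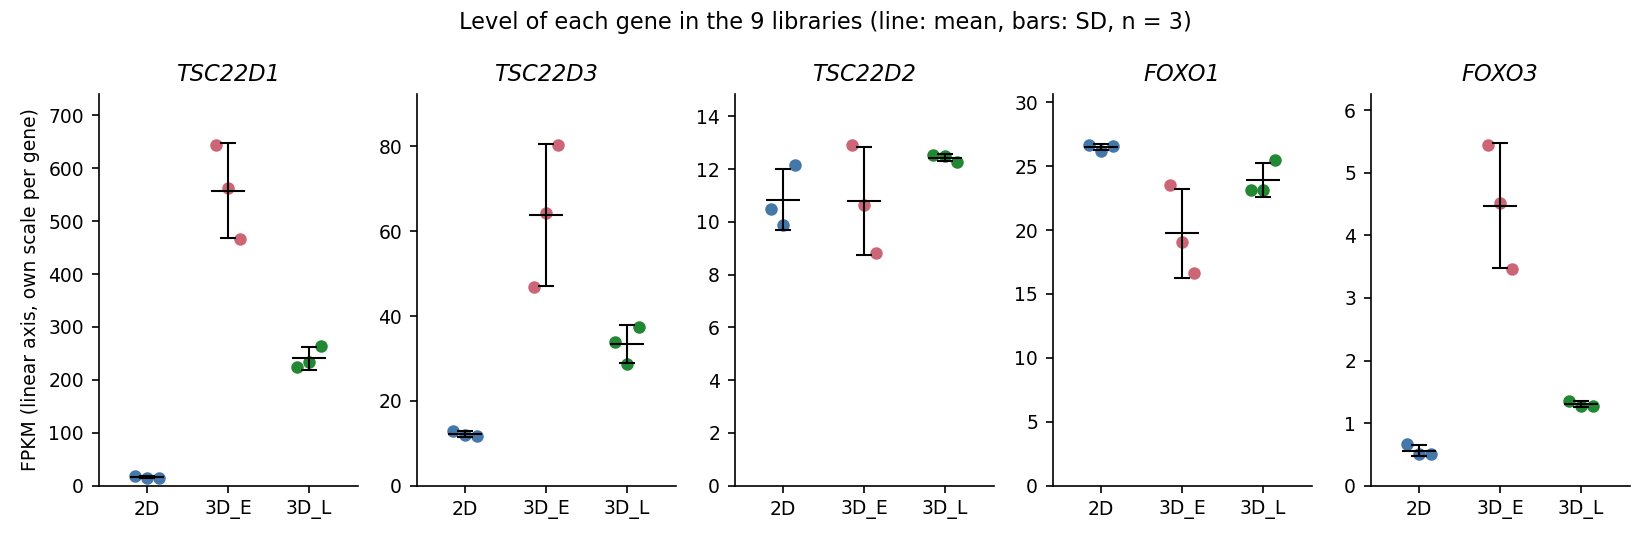
FPKM of the 5 genes in each library (points, linear axes that start at 0 and differ between genes), with the group mean and SD (n = 3). TSC22D1, TSC22D3 and FOXO3 stand highest in 3D_E and next in 3D_L with no overlap between groups, TSC22D2 stays between 8.82 and 12.93, and FOXO1 is lower in 3D_E than in 2D.

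The gene listed as TSC22D3 (NCBI gene 768091) followed the same order of groups at a lower level. In the RefSeq gene table of another assembly, GRCg7b, this gene number carries the symbol TSC22D4, with TSC22D3 and GILZ as synonyms, and lies beside MID2. The values below belong to that gene number, and which mammalian gene it matches best was not settled here. Its FPKM was 12.85, 12.05 and 11.66 in 2D. In 3D_E it was 46.87, 64.34 and 80.42, and in 3D_L 33.91, 28.72 and 37.53. No library of one group reached the range of another, although the lowest 3D_E library was much closer to 3D_L than the highest. The mean in 3D_E, 63.9 ± 16.8, was 5.24 times the 2D mean of 12.2 ± 0.607, a log2 difference of 2.27 given without a test. In 3D_L, TSC22D3 stood at 33.4 ± 4.43 and rose over 2D by 1.38 ± 0.176 (SE) on the log2 scale (limma, adjusted p = 2.67e-04). From 3D_E to 3D_L it fell by 0.89 on the log2 scale (SE 0.176, limma, adjusted p = 0.00233). Within 3D_E the libraries ran in opposite order for TSC22D1 and TSC22D3: the library with the most TSC22D1 had the least TSC22D3. This order was not particular to the pair. TSC22D2, FOXO1 and FOXO3, and of the genes below AKT1 and YWHAE, also ran down from replicate 1 to replicate 3. MTOR, ULK1 and NRBP1 ran up, like TSC22D3. Replicate 1, with the lowest summed FPKM of 3D_E (641334), held 13.8 times as much TSC22D1 as TSC22D3, and replicate 3, with the highest (738281), 5.80 times as much. The part of library make-up in this was not tested.

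TSC22D2 (NCBI gene 100859827), a long member of the family, showed little movement. It was listed at 10.50, 9.90 and 12.14 FPKM in 2D, at 12.93, 10.65 and 8.82 in 3D_E, and at 12.53, 12.49 and 12.28 in 3D_L. The 3D_E libraries spanned the whole 2D range, and the 3D_L libraries lay just above it. The log2 difference was -0.02 between 3D_E and 2D, without a test. It was 0.19 ± 0.13 (SE) between 3D_L and 2D (limma, adjusted p = 0.294) and 0.20 ± 0.13 between 3D_L and 3D_E (adjusted p = 0.211), neither past the threshold. These values do not show that the level stayed the same.

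The make-up of the family by level changed with TSC22D1. TSC22D1, TSC22D2 and TSC22D3 together reached 38.9 ± 2.87 FPKM in 2D, compared with 632 ± 74.4 in 3D_E and 286 ± 24.0 in 3D_L. TSC22D1 made up 40.6% ± 2.91 of that sum in 2D, 87.9% ± 3.79 in 3D_E and 84.0% ± 1.08 in 3D_L. TSC22D3 held 31.4% ± 1.87, 10.4% ± 3.92 and 11.7% ± 1.07 in the same order, even though its own level was higher in both 3D groups. TSC22D2 went from 28.0% ± 3.01 to 1.70% ± 0.126 and 4.37% ± 0.394. In 2D, then, the 3 genes stood near each other, and in either 3D group most of the summed FPKM came from TSC22D1. TSC22D4, as a separate entry, is not part of these sums.

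**Figure D2:**
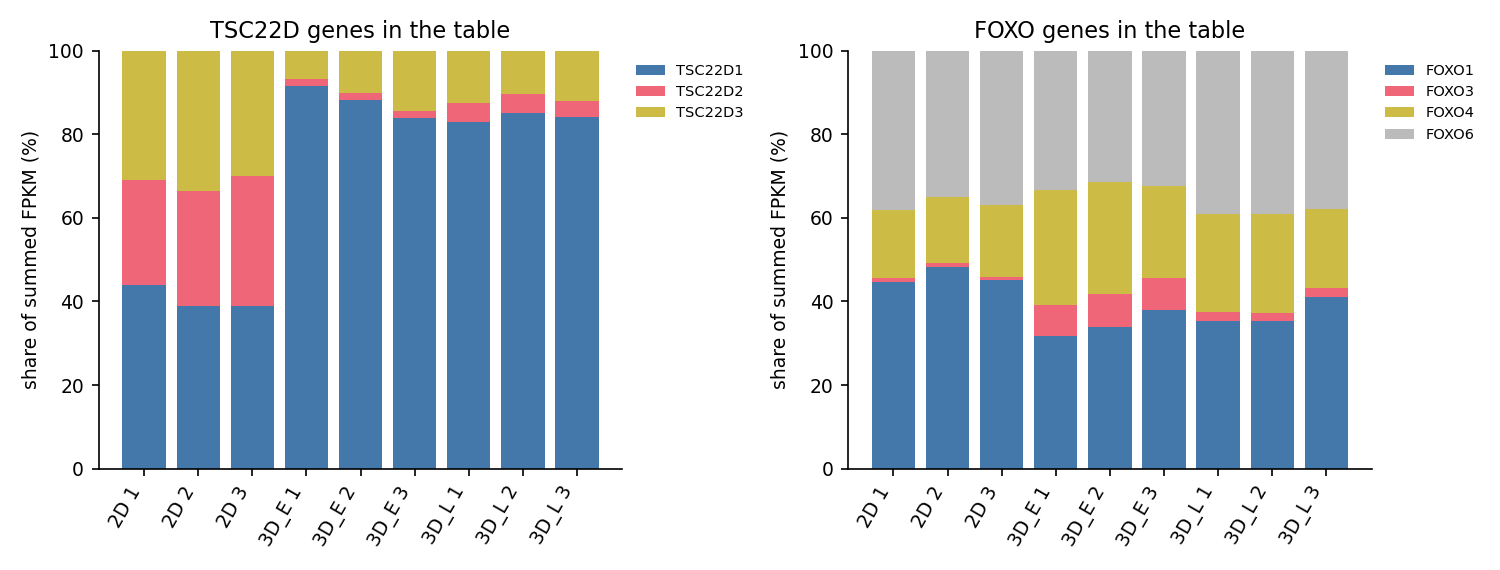
Share of the summed FPKM of the TSC22D genes in the table (left) and of the 4 FOXO genes in the table (right), in percent per library. TSC22D1 takes 38.9% to 44.0% of its family in 2D and at least 82.8% in every 3D library; FOXO3 takes at most 1.10% of the FOXO sum in 2D and at least 7.37% in every 3D_E library.

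FOXO1 (NCBI gene 374231), which in mammals acts in insulin response and arrest, was the more abundant of the pair FOXO1 and FOXO3 in every library. Its FPKM was 26.68, 26.19 and 26.60 in 2D. In 3D_E it was 23.52, 19.08 and 16.62, and in 3D_L 23.16, 23.15 and 25.49. Every library of either 3D group was below every 2D library, and the 3D_L libraries overlapped the top of the 3D_E range. The mean in 3D_E, 19.7 ± 3.50, was 0.745 times that of 2D, 26.5 ± 0.263, a log2 difference of -0.42 without a test. For 3D_L, at 23.9 ± 1.35, the log2 difference from 2D was -0.14 (SE 0.118, limma, adjusted p = 0.379), which did not pass the threshold. Between 3D_L and 3D_E the difference was 0.28 ± 0.118 (SE; adjusted p = 0.0706).

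FOXO3 (NCBI gene 421769), tied in mammals to stress resistance, autophagy and longevity, was a low message whose level followed the order of TSC22D1 and TSC22D3. It was listed at 0.66, 0.50 and 0.51 FPKM in 2D, at 5.45, 4.52 and 3.46 in 3D_E, and at 1.36, 1.28 and 1.28 in 3D_L. The groups did not overlap. No 2D library reached the 1 FPKM needed for the test, and FOXO3 was tested only because its 3D libraries did. The mean in 3D_E, 4.48 ± 0.996, was 8.04 times the 2D mean of 0.557 ± 0.0896, a log2(FPKM + 1) difference of 1.80 without a test. That scale understates the change of so low a gene: the difference was 2.79 with a pseudocount of 0.1 and 0.77 with 5. In 3D_L it stood 0.57 ± 0.13 (SE) above 2D on the log2 scale (limma, adjusted p = 0.00766). Because the filter let FOXO3 in through the groups where it is high, this p-value leans towards a rise and is given only beside the values. It was past the threshold without the filter (adjusted p = 0.0116) and not past it with a pseudocount of 5 (adjusted p = 0.0583) and with quantile normalization (adjusted p = 0.28). From 3D_E to 3D_L it fell by 1.23 on the log2 scale (SE 0.13, limma, adjusted p = 5.25e-05).

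The balance of FOXO1 and FOXO3 differed between groups. FOXO1 stood between 40.4 and 52.4 times above FOXO3 in the 2D libraries, between 4.22 and 4.80 times in 3D_E and between 17.0 and 19.9 times in 3D_L, with no overlap of the 3 ranges. FOXO3 made up 2.06% ± 0.310 of the FPKM of the pair in 2D, 18.4% ± 1.03 in 3D_E and 5.19% ± 0.385 in 3D_L. The sum itself was 27.0 ± 0.330, 24.2 ± 4.48 and 25.2 ± 1.33 in that order, and these ranges overlapped. The table also holds FOXO4 and FOXO6, which are not among the members. In the order 2D, 3D_E, 3D_L, FOXO6 was at 21.2 ± 1.99, 18.9 ± 5.26 and 24.8 ± 1.22 FPKM, and FOXO4 at 9.50 ± 0.770, 15.03 ± 5.37 and 14.2 ± 2.10. FOXO4 was 0.56 ± 0.22 (SE) higher in 3D_E than in 2D on the log2 scale (limma, adjusted p = 0.0455), but its 3D_E libraries of 20.35, 15.11 and 9.62 overlapped those of 2D. That call was lost without any 1 of 8 libraries, all but replicate 3 of 3D_E (adjusted p between 0.0532 and 0.128). In 3D_L, FOXO4 was above every 2D library and not called (adjusted p = 0.087), but it was called without replicate 1 (adjusted p = 0.0157) or without replicate 3 of the 3D_E group (adjusted p = 0.00825). FOXO6 was not called in any of the 3 comparisons (adjusted p = 0.333, 0.327 and 0.06). Without replicate 1 of 3D_E it was called as lower in 3D_E than in 2D (adjusted p = 0.00995) and as higher in 3D_L than in 3D_E (adjusted p = 8.3e-04); in 3D_L against 2D it was called in a fit of those groups alone (adjusted p = 0.0441).

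In 3D_L against 2D, 3 of the 5 members were past the threshold, TSC22D1, TSC22D3 and FOXO3, each of them higher. This count supports nothing on its own, since TSC22D1 was chosen with the same 2D libraries and FOXO3 entered through its 3D libraries. Over all genes tested, 36.4% were called in that comparison, and 20.3% rose and 16.2% fell. The groups did not overlap for all 5 members there, TSC22D2 included, with 4 higher and FOXO1 lower in 3D_L. Such a lack of overlap was common, since 62.8% of all genes showed it, 34.0% with every 3D_L library higher and 28.8% with every one lower. Of the 4 members tested in 3D_L against 3D_E, 2 were called, TSC22D3 and FOXO3, both lower in 3D_L. In that comparison 53.6% of all genes were called, and 27.2% rose and 26.4% fell. TSC22D1, TSC22D3 and FOXO3 had every 3D_L library below every 3D_E library, and the background for no overlap was 56.5%, with 29.4% higher and 27.0% lower. Without replicate 1 of 3D_E the count became 4, since TSC22D2 (adjusted p = 0.0207) and FOXO1 (adjusted p = 0.00252) were then called as higher in 3D_L. In 3D_E against 2D, where 68.2% of all genes were called, 4 members did not overlap between groups, 3 of them higher and FOXO1 lower. The background there was 70.6%, with 37.1% higher and 33.5% lower, and nothing is read from these counts because that comparison chose the members. The log2 differences of TSC22D1, TSC22D3 and FOXO3 in 3D_E against 2D were 5.05, 2.27 and 1.80, beside 3.85, 1.38 and 0.57 in 3D_L against 2D. Both comparisons use the same 2D libraries. The median over all genes tested was 0.05 in the first and 0.03 in the second.

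**Figure D3:**
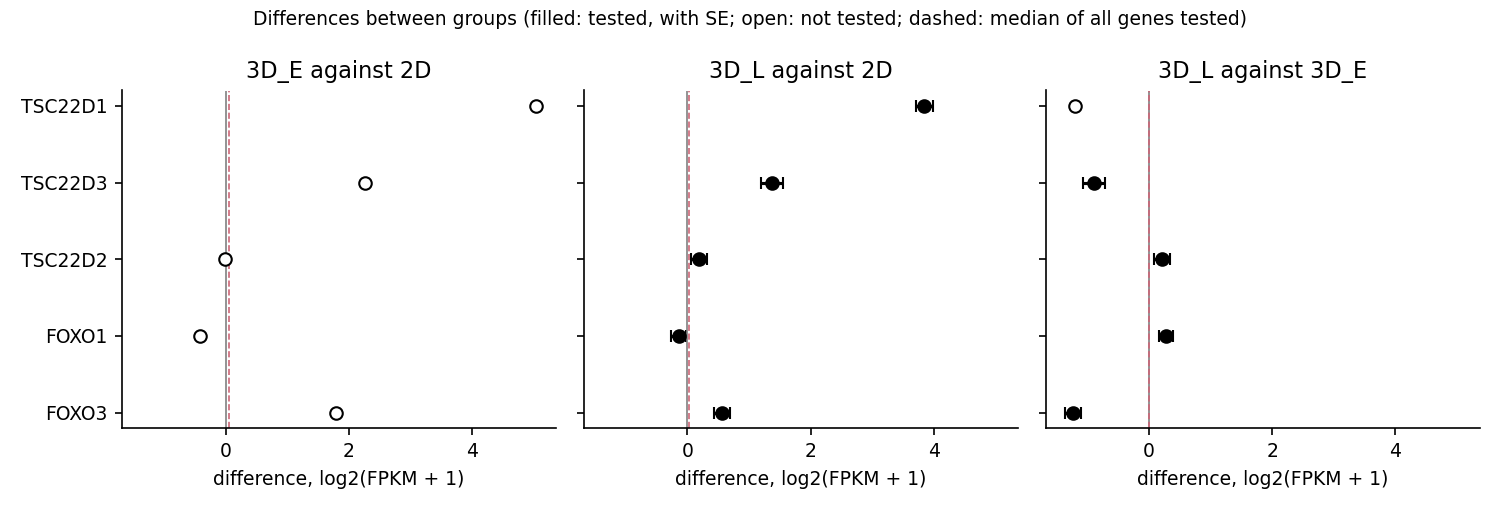
Differences between groups on the log2(FPKM + 1) scale for the 5 genes. Filled points were tested and carry the SE of the limma fit, open points were not tested, and the dashed line is the median of all genes tested; TSC22D1, TSC22D3 and FOXO3 lie right of 0 in both comparisons with 2D and left of 0 in 3D_L against 3D_E.

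Upstream of FOXO, genes of PI3-kinase and AKT signalling were mostly higher in 3D_E. The list mixes genes that promote this signalling with genes that restrain it, so its counts give no direction for the pathway. The AKT phosphatases PHLPP1 and PHLPP2 and the MTOR inhibitors TSC1 and TSC2 were among the rises. Of 24 tested, 14 rose and 2 fell (58.3% and 8.3%, against 36.1% and 32.1% of all genes), with a median log2 change of 0.48. PIK3R3, a regulatory subunit of PI3-kinase, rose from 13.7 ± 0.953 to 50.6 ± 3.93 FPKM (limma, adjusted p = 1.67e-06). AKT1, the kinase that phosphorylates FOXO proteins, fell from 51.3 ± 4.37 to 25.1 ± 7.05 (adjusted p = 4.52e-04). Its 3D_E libraries were at 32.32, 24.62 and 18.24, all below 2D. SGK1, a related kinase that also acts on FOXO3, rose from 15.1 ± 0.275 to 37.5 ± 5.04 (adjusted p = 2.85e-06). MTOR, the growth kinase, rose from 9.60 ± 1.02 to 26.5 ± 6.62. In 3D_L against 2D, 7 of the 24 rose and 0 fell (29.2% and 0%, against 20.3% and 16.2% of all genes), and the rises numbered 12 without replicate 1 and 11 without replicate 3 of 3D_E, 13 in a fit of those groups alone and 4 with a filter of 5 FPKM. PIK3R3 stayed at 50.4 ± 8.85 there, SGK1 rose to 29.1 ± 0.407 (adjusted p = 1.02e-04), and AKT1 at 41.9 ± 2.595 was not called (adjusted p = 0.228), though it was called lower in a fit of those groups alone (adjusted p = 0.0151) and with weights per group (adjusted p = 0.0289). From 3D_E to 3D_L, 3 rose, AKT1, the AKT-activating kinase PDPK1 and the MTOR complex subunit MLST8, and 11 fell (12.5% and 45.8%, against 27.2% and 26.4% of all genes). The call of PDPK1 (adjusted p = 0.0162) was lost without replicate 1 (adjusted p = 0.0501) or replicate 2 of 3D_L (adjusted p = 0.065).

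Among genes whose products modify or bind FOXO proteins, falls outnumbered rises in 3D_E. Of 24 tested, 3 rose, 12 fell and 9 did not pass the threshold (12.5% rose and 50% fell, against 36.1% and 32.1% of all genes), with a median log2 change of -0.20, and the rises numbered 6 without replicate 3 of 3D_E. CDK2, a cell cycle kinase that phosphorylates FOXO1 in mammals, fell from 203 ± 6.57 to 45.5 ± 2.91 (limma, adjusted p = 4.45e-08). YWHAE, one of the 14-3-3 proteins that hold phosphorylated FOXO in the cytoplasm, fell from 691 ± 21.5 to 301 ± 100.1 (adjusted p = 3.78e-04). The acetyltransferases EP300 and CREBBP rose by 0.99 and 0.94 on the log2 scale. The list also holds FOXO4 and FOXO6 themselves, and FOXO4 was the remaining rise, a call that depended on single libraries as given above. In 3D_L against 2D, 1 rose, CREBBP, and 3 fell (4.2% and 12.5%, against 20.3% and 16.2% of all genes). The ubiquitin ligase MDM2 fell from 20.4 ± 0.367 to 10.95 ± 0.571 there. Both counts moved: the rises numbered 3 without replicate 1 or replicate 3 of 3D_E and 2 without replicate 3 of 3D_L, and the falls numbered 7 without either of those 3D_E libraries. From 3D_E to 3D_L, 11 rose and 2 fell (45.8% and 8.3%, against 27.2% and 26.4% of all genes). There the rises numbered 6 without replicate 2 of 3D_E or of 3D_L, and the falls 4 without replicate 1 of 3D_E and 1 without replicate 2 of 3D_E or replicate 3 of 3D_L.

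Most of the FOXO targets tested, from a list drawn from mammalian work, were higher in 3D_E. The list has 40 entries, of which 34 were in the table and 28 passed the filter. CAT, PCK1, PPARGC1A and CITED2, near 0 in every group, and TRIM63, at most 0.28 FPKM, did not pass. Of 28 tested, 19 rose and 5 fell (67.9% and 17.9%, against 36.1% and 32.1% of all genes), with a median log2 change of 0.80. ULK1, the kinase that starts autophagy, rose from 1.38 ± 0.252 to 26.3 ± 7.85 FPKM (limma, adjusted p = 2.1e-07). FBXO32, a ubiquitin ligase of muscle wasting also called atrogin-1, rose from 2.26 ± 0.293 to 20.5 ± 2.01. TXNIP, a brake on glucose uptake and thioredoxin, rose from 14.1 ± 1.31 to 40.7 ± 3.93. BCL6, a repressor, rose by 2.13 on the log2 scale, and INSR, the insulin receptor, by 1.31. The cell cycle inhibitor CDKN1B rose from 32.7 ± 2.62 to 42.1 ± 3.05 (adjusted p = 0.0104), a call that was lost without replicate 3 of 2D (adjusted p = 0.051). The mitochondrial dismutase SOD2, a classical FOXO3 target, fell from 107.9 ± 3.03 to 53.3 ± 7.64 (adjusted p = 3.66e-05), and SESN1, a stress sensor, fell by 0.65. BCL6, INSR, CAT, PCK1, PPARGC1A, CITED2 and TRIM63, like MLST8, PHLPP1, PHLPP2, TSC1 and TSC2 above, were chosen after their values were seen.

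In 3D_L against 2D, 16 of the 28 FOXO targets rose and 4 fell (57.1% and 14.3%, against 20.3% and 16.2% of all genes), and the falls numbered 2 without replicate 1 of 2D or of 3D_L. FBXO32 stood at 9.79 ± 0.670 (limma, adjusted p = 2.36e-06) and ULK1 at 6.29 ± 0.452 (adjusted p = 1.37e-04). TRIB1, a pseudokinase, stood at 0.997 ± 0.120 in 2D and 5.76 ± 0.561 in 3D_L. Its 2D libraries, at 1.12, 0.88 and 0.99, would not have passed the filter without the 3D groups, so no test is given for it. The counts of FOXO targets nevertheless include TRIB1. CDKN1B fell to 24.8 ± 2.11 (adjusted p = 0.0148), below 2D where 3D_E was above it, and this call was lost without replicate 1 of 2D (adjusted p = 0.0658) or of 3D_L (adjusted p = 0.0688). SOD2 fell to 73.7 ± 7.63. Between the 3D groups, 3 targets were higher and 15 lower in 3D_L (10.7% and 53.6%, against 27.2% and 26.4% of all genes). The list was not tested as a set, and the background in each comparison is itself large.

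The glucocorticoid list holds the receptor, its regulators and its targets, and relates to TSC22D3, a classical target in mammals. Of 19 tested, 12 rose and 4 fell in 3D_E against 2D (63.2% and 21.1%, against 36.1% and 32.1% of all genes), with a median log2 change of 1.21. NR3C1, the glucocorticoid receptor, was at 3.63, 3.14 and 3.26 FPKM in 2D, at 8.83, 9.02 and 9.18 in 3D_E and at 5.5, 5.83 and 5.94 in 3D_L, with no overlap. It rose in both comparisons with 2D (limma, adjusted p = 1.22e-06 and adjusted p = 3.17e-04). CRISPLD2, a secreted protein, rose from 2.84 ± 0.236 to 69.5 ± 17.3 in 3D_E. DUSP1, the MAP kinase phosphatase, rose from 8.67 to 114 ± 18.5. CEBPD, a transcription factor, went from 2.72 ± 0.452 to 33.7 ± 5.46 and was called. KLF15, another, went from 0.613 ± 0.0764 to 15.9 ± 2.80. Every 2D library of KLF15 was under the filter, which it passed only through the 3D groups, so no test is given for it. The counts of this list nevertheless include KLF15, as well as HSD11B2 and GLUL, which were also under 1 FPKM in every 2D library. FKBP5, a chaperone partner that is among the most used glucocorticoid markers in mammals, did not share the group order of NR3C1. It stood at 93.0 ± 2.85 in 2D, 76.4 ± 12.1 in 3D_E and 129 ± 8.77 in 3D_L. Its fall in 3D_E was just past the threshold (adjusted p = 0.0465) and was lost without any 1 of 8 libraries, all but replicate 3 of 3D_E (adjusted p between 0.0519 and 0.13). In 3D_L it rose over 2D (adjusted p = 0.0114), which was lost without replicate 1 of 3D_L (adjusted p = 0.0525). In 3D_L against 2D, 12 of the 19 rose and 2 fell, ERRFI1 and FKBP4 (63.2% and 10.5%, against 20.3% and 16.2% of all genes). These 2 falls numbered 1 without replicate 1 of 2D, replicate 2 of 3D_E or replicate 3 of 3D_L, and 0 without replicates 2 or 3 of 2D or replicates 1 or 2 of 3D_L. Between the 3D groups, 5 were higher in 3D_L and 11 lower (26.3% and 57.9%, against 27.2% and 26.4% of all genes).

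**Figure D4:**
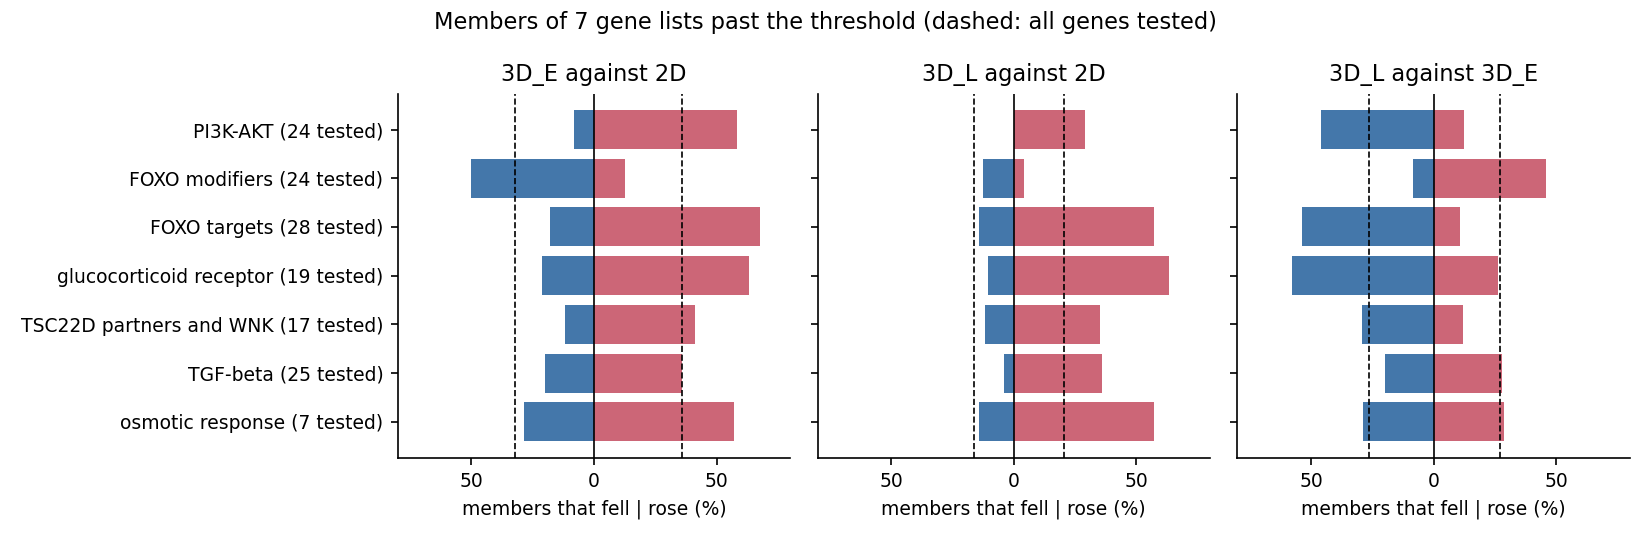
Percent of the tested members of each gene list that rose (right, red) or fell (left, blue) past an adjusted p of 0.05, with dashed lines at the percent of all 10436 genes tested. FOXO targets and the glucocorticoid list exceed the line for rises in both comparisons with 2D (67.9% and 63.2% in 3D_E, 57.1% and 63.2% in 3D_L). So do PI3K-AKT (58.3% in 3D_E, 29.2% in 3D_L), osmotic response (57.1% in each) and TSC22D partners and WNK (41.2% in 3D_E, 35.3% in 3D_L). Of these comparisons, TGF-beta exceeds the line in 3D_L alone, and FOXO modifiers in neither. The bars include genes that passed the filter only through their 3D libraries.

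Partners of the TSC22 domain proteins and the WNK pathway, which senses cell volume and ions, had a share of rises in 3D_E near that of all genes. Of 17 tested, 7 rose and 2 fell against 2D (41.2% and 11.8%, against 36.1% and 32.1% of all genes), and the falls numbered 4 without replicate 1 of 3D_E. NRBP1, the pseudokinase that binds TSC22 domain proteins, was at 23.69, 22.56 and 23.91 FPKM in 2D and at 45.36, 53.94 and 62.08 in 3D_E, a rise of 1.16 ± 0.112 (SE) on the log2 scale (limma, adjusted p = 1.16e-05). In 3D_L it stood at 29.2 ± 1.17, every library above 2D, and was not called (adjusted p = 0.0537), though it was when the fit left out replicate 1 of 3D_E (adjusted p = 0.00886) or its replicate 3 (adjusted p = 0.0122). WNK1, the kinase at the head of the pathway, rose from 12.9 ± 1.19 to 27.0 ± 0.594 in 3D_E (adjusted p = 3.73e-05) and to 27.3 ± 3.95 in 3D_L (adjusted p = 1.28e-04). The kinases that WNK1 activates, STK39 and OXSR1, fell in 3D_L against 2D, STK39 from 16.3 ± 1.36 to 9.32 ± 0.189. In all, 6 of the 17 rose and 2 fell there (35.3% and 11.8%, against 20.3% and 16.2% of all genes), with 3 rises under a filter of 5 FPKM or quantile normalization. In 3D_L against 3D_E, 2 rose and 5 fell (11.8% and 29.4%, against 27.2% and 26.4% of all genes), and these counts moved. The rises numbered 5 without replicate 1 of 3D_E, and the falls numbered 2 without replicate 2 of 3D_E and 3 without any 1 of the 2D libraries, replicate 3 of 3D_E, or replicates 2 or 3 of 3D_L.

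The TGF-beta list had a share of rises in 3D_E close to that of all genes. Of 25 tested, 9 rose and 5 fell (36% and 20%, against 36.1% and 32.1% of all genes). The ligand TGFB3 fell from 74.9 ± 0.848 to 14.1 ± 3.30 FPKM in 3D_E (limma, adjusted p = 3.21e-07) and stood at 83.7 ± 3.71 in 3D_L (adjusted p = 0.392 against 2D). SMAD7, the inhibitory SMAD that TGF-beta induces, was low, at 0.66, 0.57 and 0.64 in 2D, 1.64, 1.86 and 1.46 in 3D_E, and 1.34 in each 3D_L library. It passed the filter only through the 3D groups, so no test is given for it, though the counts of this list include it. ID1, an inhibitor of differentiation that BMP signals induce, rose from 64.8 ± 6.24 to 200.2 ± 73.7 in 3D_E. In 3D_L against 2D, 9 rose and 1 fell, CTGF (36% and 4%, against 20.3% and 16.2% of all genes). The falls numbered 3 without replicate 1 and 2 without replicate 3 of 3D_E. In 3D_L against 3D_E, 7 rose and 5 fell (28% and 20%, against 27.2% and 26.4% of all genes), and the falls numbered 3 without any 1 of the 3D_L libraries or replicates 1 or 2 of 3D_E.

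Of the 7 osmotic response genes tested, 4 rose and 2 fell in 3D_E, and 4 rose and 1 fell in 3D_L, each against 2D. These are 57.1% and 28.6% in 3D_E, where 36.1% of all genes rose and 32.1% fell, and 57.1% and 14.3% in 3D_L, where 20.3% rose and 16.2% fell. SLC6A6, the taurine transporter, was listed at 0.02 to 0.03 FPKM in 2D, 3.23 to 4.99 in 3D_E and 3.09 to 4.17 in 3D_L, and was tested only through its 3D libraries. NFAT5, the main transcription factor of the osmotic response, rose in 3D_E from 11.4 ± 0.592 to 16.9 ± 0.503 (limma, adjusted p = 0.00152). In 3D_L it was at 15.1 ± 2.11 and was called (adjusted p = 0.0225), but not without any 1 of the 2D libraries or without replicate 1 or 2 of 3D_L (adjusted p between 0.0525 and 0.0984). AQP1, a water channel, fell in 3D_E from 404 ± 11.1 to 37.1 ± 29.0 and stood at 470.5 ± 60.6 in 3D_L. In 3D_L against 3D_E, 2 rose and 2 fell (28.6% each way, against 27.2% and 26.4% of all genes), and 1 fell without any 1 of the 3D_L libraries, replicates 2 or 3 of 3D_E, or replicates 1 or 3 of 2D.

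The genes with the profile most like that of TSC22D1 were found by the root mean square difference of centred log2(FPKM + 1) values over the 9 libraries, as a description. They were EDNRB2, an endothelin receptor, at 0.27, CRISPLD2 at 0.44, CYP26B1, which breaks down retinoic acid, at 0.53, KLF4, a Krueppel-like factor, at 0.56 and C4A, a complement component, at 0.59. The median over all genes tested was 2.15. EDNRB2, CYP26B1 and C4A stood under 1 FPKM in 2D and passed the filter only through the 3D groups. Their closeness to TSC22D1, at 15.8 FPKM in 2D, depends on the pseudocount of 1, and no other was tried for it. By group, EDNRB2 was at 0.217 ± 0.0404 FPKM in 2D, compared with 44.7 ± 3.07 in 3D_E and 24.1 ± 1.21 in 3D_L. KLF4 was at 1.69 ± 0.392, 52.5 ± 15.2 and 16.9 ± 3.49, and its highest 3D_E library was the one with the least TSC22D1. For TSC22D3 the nearest were CD63, a lysosomal tetraspanin, at 0.10, and SLC27A1, a fatty acid transporter, at 0.15. CD63 stood at 751 ± 73.6, 3565 ± 851 and 1802 ± 45.2. For FOXO3 they were WIPI1, an autophagy protein, and PPM1H, a phosphatase, both at 0.07, with 3 genes in all under 0.1. WIPI1 stood at 72.8 ± 2.56, 249 ± 47.8 and 114 ± 1.66. The closeness holds on the log2(FPKM + 1) scale, where the added 1 compresses a gene as low as FOXO3. In FPKM, WIPI1 changed less than FOXO3, whose 3D_E mean was 8.04 times its 2D mean. For FOXO1, PRCC and the translation factor EIF3J were nearest, and 192 genes lay under 0.1. For TSC22D2, RNF2, a Polycomb ubiquitin ligase, and LOC776594 were nearest, and 48 genes lay under 0.1, so these profiles single out little.

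**Figure D5:**
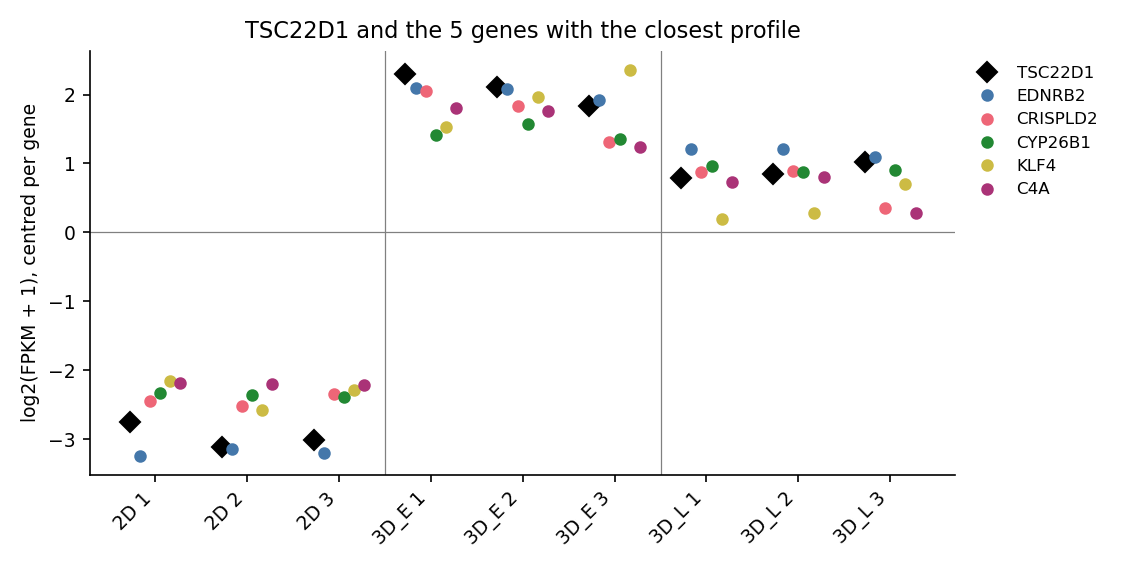
Log2(FPKM + 1) of TSC22D1 (diamonds) and its 5 nearest genes (circles), centred on each gene's mean, in the 9 libraries. All 6 genes are lowest in 2D and, by group mean, highest in 3D_E; KLF4 is highest in replicate 3 of 3D_E, where TSC22D1 is lowest of that group.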

How the data were processed

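RNA was extracted with trizol and poly-A selected before sequencing, per the labels' protocols. Per the file headers, the deposited values are the authors' FPKM, 1 per gene and library. The submitters' processing notes name HISAT2 2.0.5, R 3.4.2, DESeq2 and the build GRCg6a without roles. Neither the annotation nor the FPKM program is known from what was used here, and depth is unknown. A single line without a gene (1) and 82 unnamed columns were left out. The RefSeq table of GRCg7b holds 14265 of the gene numbers, 903 under another symbol, so no coordinates are printed.

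Groups and replicate numbers came from the titles. A limma 3.58.1 fit (R 4.3.3, eBayes with trend, 6 residual degrees of freedom, 2-sided) of log2(FPKM + 1) covered all 9 libraries and the 10436 genes that reached 1 FPKM in 3 or more libraries, with Benjamini-Hochberg adjustment over these genes. Called, rose and fell mean an adjusted p under 0.05. Values with ± are means and SD over 3 libraries unless marked SE. The fit was tested on simulated data.

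The members and the 7 gene lists were chosen with earlier results of these data known. List entries were matched by symbol, 152 of 173 in the table and 138 tested; some genes are in more than 1 list. List counts include genes, such as SMAD7, KLF15, SLC6A6, CDKN1A and SESN3, that reached 1 FPKM only in 3D libraries. They also include TRIB1, which passed the filter only with its 3D libraries. Named genes were the members, their nearest profiles (5 for TSC22D1, 2 for each other member), up to 2 rises and 2 falls per list and comparison, and 14 direct links to the members, of which 1 is not reported here. Related genes may share reads, and the rule for such reads is not known. Other settings tried were pseudocounts, filters, scalings, a fit of the compared groups alone, weights per group, a fit without trend, a replicate block and leaving out each library. Figures were drawn with matplotlib 3.10.9.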

Additional observations from a re-analysis of the deposited data

How the results depend on the processing

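Under 20 alternatives, the log2 differences of TSC22D1 (3.56 to 3.95) and TSC22D3 (1.153 to 1.48) in 3D_L against 2D, and of TSC22D3 (-1.09 to -0.71) in 3D_L against 3D_E, kept their direction and their call. FOXO3 kept its call in 3D_L against 3D_E under the 19 that tested it. Members changed in 3D_L against 2D numbered 3 without any one library. That count still supports nothing on its own, however stable. TSC22D1 was chosen with the same 2D libraries, which also limits its call, and FOXO3 entered through its 3D libraries. Members changed in 3D_L against 3D_E numbered 1 with a filter of 5 FPKM, which leaves FOXO3 out, and from 2 to 4 with each library left out. Pathway list genes that fell in 3D_L against 2D, 12 of 138, numbered 21 with only the 2 groups compared, 21 with weights per group, and 8 to 19 with each library left out; the cause was not tested. The other list totals without a library were 61 to 75 rises and 25 to 37 falls in 3D_E against 2D, 45 to 63 rises in 3D_L against 2D, and 24 to 44 rises and 38 to 51 falls in 3D_L against 3D_E. Counts of single lists stayed within 1.5 times in 760 of 840 cases. Of 125 list gene results, 97 kept their side of the threshold throughout. Replicate numbers gave no sign of a pairing of the samples: 1 of 9 same-numbered pairs had correlated deviations over 0.1 (-0.404 to 0.182), against 6 of 18 others, and not every sample correlated best with its own number. Deviations from a mean of 3 libraries depend on each other, so this check cannot exclude a pairing. With the replicate block, members changed were 3 in 3D_L against 2D and 2 in 3D_L against 3D_E, and no member's call changed, while FOXO6 was called in 3D_L against 3D_E (0.41, adjusted p = 0.0471). Unknown depth limits the low values of FOXO3, and 3D_E, which varied most, shares 1 estimate of spread with the other groups.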
